A study of Mus musculus with 6 samples.

Results

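The LGI proteins (leucine-rich, glioma inactivated) are secreted by neurons and glia, and their receptors ADAM11, ADAM22 and ADAM23 are membrane proteins of the ADAM family that lack protease activity. The genes described here are the ligand genes Lgi1, Lgi2, Lgi3 and Lgi4 and the receptor genes Adam11, Adam22 and Adam23. Rows of the array table were taken by gene symbol, and where a symbol had several rows the one with the highest mean over the 6 arrays was to be used. Each of the 7 genes had a single row, so that no choice by level was made, and all 7 were found among 21789 rows that carry 1 gene symbol, of 35556 rows in all. The family was proposed when a lower level of Lgi1 in knockdown cells was already known, so the members were in part chosen by the measured difference of Lgi1 between these groups, which is described here and is not independent support for anything else.

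The arrays compared N2A cells, a mouse neuroblastoma line of neuronal character, after transient transfection with a Pou3f3 knockdown construct (3 arrays) or with a non-targeting vector (3 arrays). Pou3f3 encodes a transcription factor of the POU family. Both groups received 1.5 µg of short hairpin RNA (shRNA) plasmid with FuGENE 6, and RNA taken 2.5 days later was profiled on Affymetrix whole-transcript mouse arrays (Mouse Gene ST), whose probes are spread along each transcript. The groups differ by label only in the construct, and the labels mention no sorting of transfected from untransfected cells. The replicates are called biological without further detail, so whether each array is a separate transfected culture is not stated. The p-values reflect the variation between arrays, which without a block includes what arrays of the same replicate number share. In pooled RNA, fewer cells that express a gene and less RNA per cell cannot be told apart. Values are log2 array intensities, on which a difference of 1 is a doubling, and differences are knockdown minus control.

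LGI1 is best known at synapses, where it bridges ADAM22 and ADAM23 across the cleft and so connects to the scaffold protein PSD-95 and to AMPA-type glutamate receptors. In rodent brain it was also found with Kv1 potassium channels, where it counters the inactivation brought about by the channel's beta 1 subunit. Mutations of LGI1 cause a familial temporal lobe epilepsy in humans, and autoantibodies to the protein cause limbic encephalitis. LGI4 is released by Schwann cells and acts through ADAM22 on axons in the myelination of peripheral nerves.

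The control regions of the genes are shown for Lgi1, the member with the largest difference, and for its receptor gene Adam22, the member with the smallest. RefSeq promoter windows of 300 bases (250 before and 50 after the transcript start, build GRCm38.p6) were found for 4 of the 7 genes, namely Lgi1, Lgi2, Adam22 and Adam23. In the sequences, capitals mark the dinucleotide CG, the site of DNA methylation, read from 5′ to 3′ on the strand of the gene. The Lgi1 window lies at chr19:38264437-38264736 on the plus strand and the Adam22 window at chr5:8368111-8368410 on the minus strand.
Lgi1: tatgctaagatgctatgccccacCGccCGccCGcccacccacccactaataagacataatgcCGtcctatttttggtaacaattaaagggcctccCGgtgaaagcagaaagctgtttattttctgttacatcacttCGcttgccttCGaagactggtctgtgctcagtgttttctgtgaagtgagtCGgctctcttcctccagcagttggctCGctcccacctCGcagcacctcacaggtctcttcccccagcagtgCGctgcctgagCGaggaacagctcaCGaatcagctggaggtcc
Adam22: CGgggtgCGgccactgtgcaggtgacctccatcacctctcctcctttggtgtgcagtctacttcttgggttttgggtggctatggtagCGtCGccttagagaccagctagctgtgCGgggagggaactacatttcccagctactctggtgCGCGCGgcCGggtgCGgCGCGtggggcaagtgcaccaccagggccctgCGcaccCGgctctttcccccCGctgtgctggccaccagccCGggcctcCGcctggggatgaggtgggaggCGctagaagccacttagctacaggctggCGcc

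The Lgi1 window held 13 CG and had a GC content of 54%. The Adam22, Lgi2 and Adam23 windows held 19, 27 and 31 CG, where the median over 32851 RefSeq windows of this length was 7. The octamer ATGCAAAT, the sequence that POU proteins are known for binding, was in none of the 4 windows on either strand, and it was in 1.74% of all windows. No match says only that these letters are not in these windows.

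Pou3f3, the gene targeted by the shRNA, had values of 8.20, 8.09 and 8.35 in knockdown cells and 8.37, 8.30 and 8.47 in control cells. The groups overlapped, and the difference of -0.16 (95% confidence interval -0.35 to 0.02) did not pass the test (limma adjusted p = 0.303). Between arrays of the same replicate number Pou3f3 was lower in all 3 pairs, by differences of -0.17, -0.21 and -0.12, and a fit blocked on replicate number gave an interval of -0.29 to -0.03 (limma adjusted p = 0.0880), short of the 1.3-fold cut-off. A gene was called when its adjusted p, taken over all 21789 rows with 1 symbol, was under 0.1 and the fold was at least 1.3, which is 0.38 on the log2 scale. By this rule 0.684% of the rows were called lower in knockdown cells and 1.3% higher, and 57.5% of all differences lay below 0, with a median of -0.03.

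Lgi1 was the only member called, and it was lower in knockdown cells. Of the other 6 members, Lgi3, Adam23, Adam11 and Lgi4 had lower means without passing the test. The differences of Lgi2, a dim row, and of Adam22 were close to 0. Thus 1 of 7 members was called lower, beside 0.684% of all rows, a count that includes the gene for which the family was chosen. The 7 differences had a median of -0.20, and 6 of 7 lay below 0, beside 57.5% of all rows.

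Among the ligands, the neuronal ligand gene Lgi1 had values of 11.94, 11.63 and 11.72 in knockdown cells and 12.43, 12.28 and 12.31 in control cells. Every knockdown array lay below every control array. The means were 11.77 ± 0.16 in knockdown cells and 12.34 ± 0.08 in control cells (SD, n = 3 each). Lgi1 thus fell by 0.57 ± 0.09 (SE; limma adjusted p = 0.0200), a fold of 1.49, and the level in knockdown cells fell by 32.8%. The 95% confidence interval of the log2 difference, -0.78 to -0.37, ended just short of the fold cut-off. The call rested on which rows were tested together. When the 35556 rows of the whole table were tested, most of the added ones being without a gene symbol, the difference was the same. The limma adjusted p was then 0.131. With the variance filter of the study's methods on the whole table it was 0.244, and the SE was 0.13. With that filter on the rows with 1 symbol the limma adjusted p was 0.00157, and the SE was 0.12.

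Lgi3, a ligand made in the brain, had values of 8.16, 8.37 and 8.39 in knockdown cells and 8.45, 8.49 and 8.72 in control cells. The groups did not overlap, although 0.06 separated the highest knockdown from the lowest control array. Its difference was -0.25 ± 0.10 (SE, 95% confidence interval -0.46 to -0.03, limma adjusted p = 0.202). Lgi4, the Schwann cell ligand, had values of 7.12, 6.97 and 7.07 in knockdown cells and 7.17, 7.31 and 7.12 in control cells, so that the nearest arrays of the groups were alike to the second decimal. Its difference was -0.15 ± 0.08 (SE, 95% confidence interval -0.32 to 0.02, limma adjusted p = 0.307). Lgi2, which is linked to a benign epilepsy of young dogs, had values of 6.53, 6.41 and 6.53 in knockdown cells and 6.48, 6.55 and 6.64 in control cells. These groups overlapped, and the difference was -0.07 ± 0.07 (SE, 95% confidence interval -0.22 to 0.09, limma adjusted p = 0.625). The mean level of Lgi2, 6.53, was under the 25th percentile of the rows with 1 symbol, so a lack of change says little there. Cyclic loess normalisation brought the difference of Lgi2 to 0.00478 and that of Lgi4 to -0.07.

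**Figure D1:**
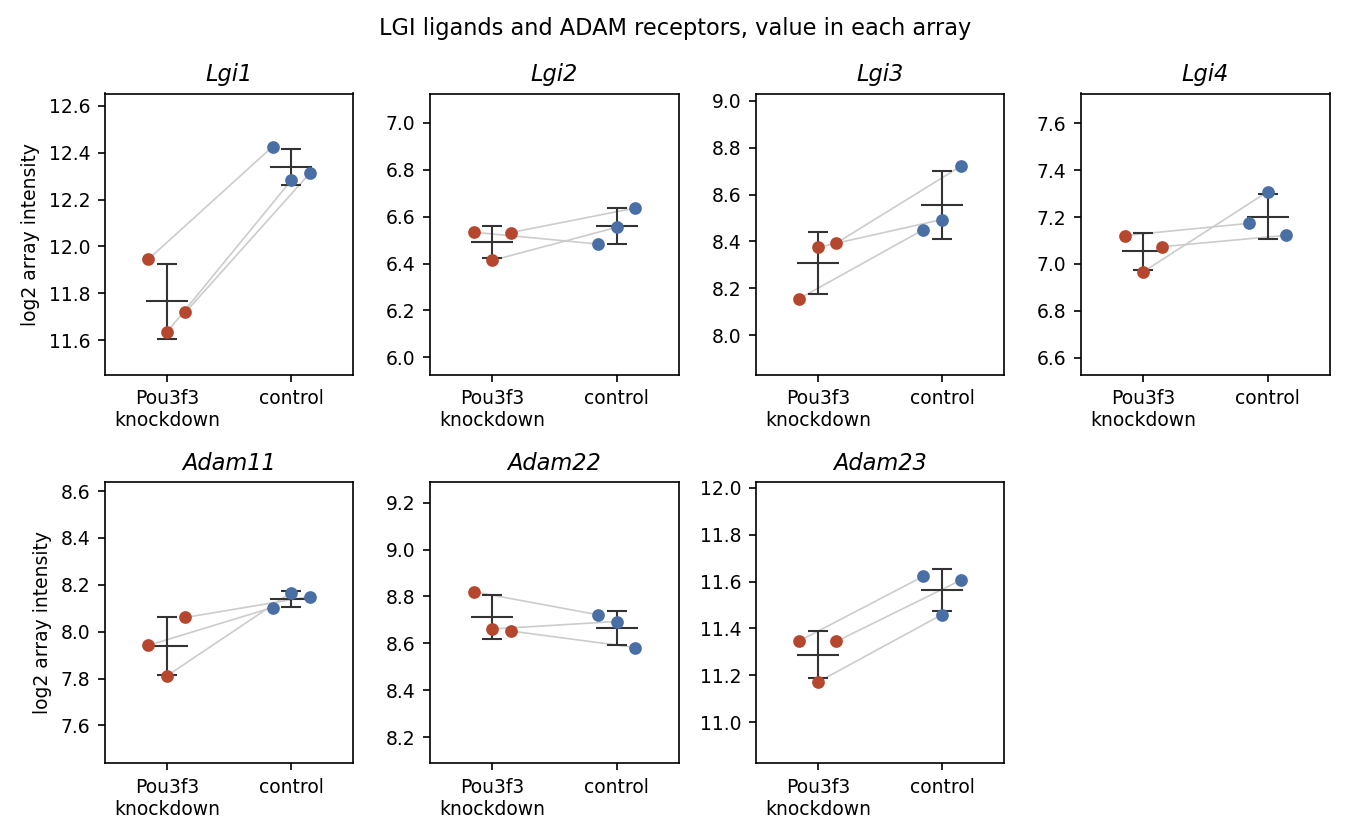
Log2 array intensity (vertical axes, each spanning 1.2 log2 units) of the 4 ligand genes (upper row) and the 3 receptor genes (lower row) in knockdown and control cells. Points are arrays, grey lines join arrays of the same replicate number, and bars are means ± SD (n = 3); Lgi1 stands apart by the widest gap, while Lgi2 and Adam22 overlap.

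Among the receptors, Adam23 had values of 11.35, 11.17 and 11.34 in knockdown cells and 11.62, 11.46 and 11.61 in control cells. ADAM23 is the receptor usually placed on the presynaptic side, and its groups did not overlap. The means were 11.29 ± 0.10 in knockdown cells and 11.56 ± 0.09 in control cells (SD, n = 3 each), a difference of -0.28 ± 0.08 (SE, 95% confidence interval -0.45 to -0.10). It did not pass the test (limma adjusted p = 0.118) and was below the fold cut-off.

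Adam11, whose product helps to place Kv1 channels at the terminals of cerebellar basket cells in mice, had values of 7.94, 7.81 and 8.06 in knockdown cells and 8.10, 8.17 and 8.15 in control cells. These groups were apart by 0.04 at their nearest arrays, and the difference was -0.20 ± 0.08 (SE, 95% confidence interval -0.38 to -0.03, limma adjusted p = 0.198). Adam22, which encodes the postsynaptic receptor that holds LGI1 to PSD-95, had values of 8.82, 8.66 and 8.65 in knockdown cells and 8.72, 8.69 and 8.58 in control cells. The groups overlapped, and its difference was 0.05 ± 0.07 (SE, limma adjusted p = 0.750). The 95% confidence interval, -0.12 to 0.21, leaves out changes of 1.3-fold in either direction.

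Groups that did not overlap were common on these arrays. They were found, lower in knockdown cells, for 5 of 7 members (Lgi1, Lgi3, Lgi4, Adam11 and Adam23), beside 15.1% of all rows. The count includes Lgi1, for which the family was chosen, and Lgi4, whose groups were apart by only 0.00108.

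**Figure D2:**
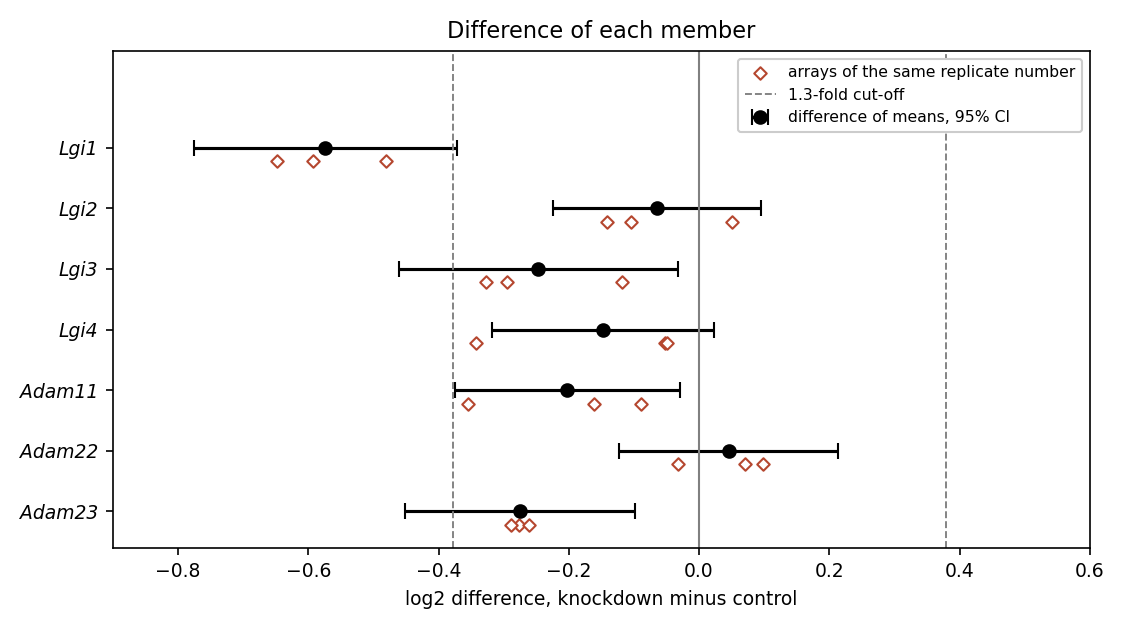
Log2 difference between knockdown and control (horizontal axis) for each member. Filled points are differences of means with 95% confidence intervals, open diamonds are differences between arrays of the same replicate number, and dashed lines mark the 1.3-fold cut-off; the point of Lgi1 alone lies beyond it, at -0.57.

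With arrays of the same replicate number taken as pairs, each gene had 3 differences, whose spread depends on that pairing. Replicate numbers 2 and 3 were hardly told apart. Deviations from the group means correlated at 0.31 and 0.29 for arrays of the same number, and at 0.22 and 0.25 across these numbers. For Adam23 the differences were -0.28, -0.29 and -0.26 in replicates 1 to 3, the narrowest range of the 7 genes under this pairing. For Lgi1 they were -0.48, -0.65 and -0.59, and for Lgi3 -0.29, -0.12 and -0.33. Those of Lgi4 (-0.05, -0.34 and -0.05) and Adam11 (-0.16, -0.36 and -0.09) were least alike and were furthest below 0 in replicate 2. Lgi2 (0.05, -0.14 and -0.10) and Adam22 (0.10, -0.03 and 0.07) had differences of both signs.

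With the replicate number as a block, Adam23, Lgi3 and Adam11 had limma adjusted p-values of 0.0160, 0.0353 and 0.0750, all with differences below the fold cut-off, and Lgi1 had 0.00143. These 4 of 7 members were lower at an adjusted p under 0.1 in that fit, without regard to fold, beside 10.7% of all rows. The count includes Lgi1, for which the family was chosen, and it rests on the pairing by number. Without the block, Adam23, Lgi3 and Adam11 did not pass (limma adjusted p = 0.118, 0.202 and 0.198). Lgi4, Lgi2 and Adam22 did not reach an adjusted p under 0.1 with the block (limma adjusted p = 0.191, 0.50 and 0.623).

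The levels of different rows are not compared, since probes differ in how brightly they hybridise, but the change of Lgi1 relative to each other member can be followed within an array. The log2 ratio of Lgi1 to Adam22 was lower in knockdown cells by 1.54-fold (difference of -0.62), that to Lgi2 by 1.42-fold (-0.51) and that to Lgi4 by 1.34-fold (-0.43). Against the receptor genes Adam11 and Adam23 the differences were -0.37 and -0.30. In these 5 comparisons all knockdown arrays lay below all control arrays. Against Lgi3 the difference was -0.33 and the groups overlapped. These ratios contain the difference of Lgi1 by which the family was chosen, so they are given as a description, with no test.

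**Figure D3:**
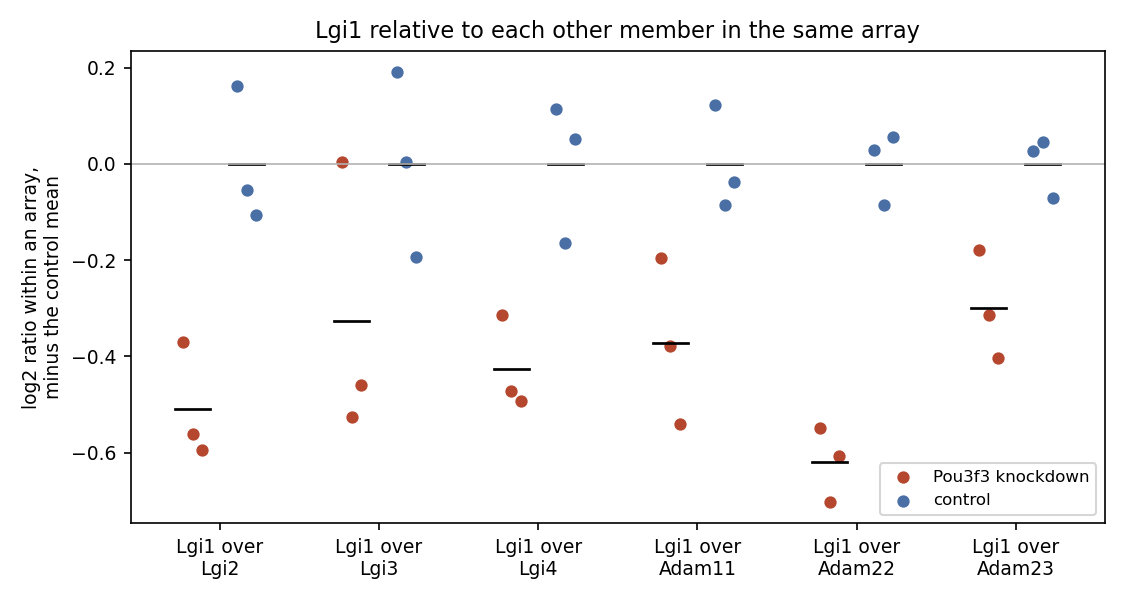
Log2 ratio of Lgi1 to each other member within the same array (vertical axis, with the mean of the control arrays set to 0) in knockdown and control cells. Points are arrays and bars are group means; the groups overlap for Lgi3 alone, and the ratio to Adam22 differs most, by -0.62.

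The genes whose values followed those of Lgi1 most closely over the 6 arrays, among 19937 other symbols, were Grk3, Ankle2, Cntn6, Edem3 and Ston2, each with a Pearson r of 0.99. GRK3 is a kinase that desensitises G protein coupled receptors, ANKLE2 takes part in rebuilding the nuclear envelope, contactin 6 is a neural adhesion molecule, EDEM3 acts in the disposal of misfolded glycoproteins and stonin 2 in the retrieval of synaptic vesicles. Their differences ran from -0.36 for Grk3 to -0.17 for Cntn6. None reached the 1.3-fold cut-off, so none was called. An r above 0.95 was found for 174 symbols (0.873%). All 6 points share the group difference and the replicate numbers, so this likeness is a description.

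Beyond the family, 47 genes were measured, called pathway genes below. They are genes that act with LGI proteins or share their repeats, and 9 other ADAM genes, which resemble the receptors. Kcnab1 was the only one called higher and none was called lower, beside 1.3% and 0.684% of all rows. The 47 differences had a median of -0.08, and 39 lay below 0, beside 57.5% of all rows. Of 28 markers of other cell types, described below, 24 also lay below 0. These counts of signs were not taken after cyclic loess, which moved the median over all rows from -0.03 to -0.000558.

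Kcnab1 encodes the beta 1 subunit of Kv1 channels, the subunit whose inactivating action LGI1 counters. It had values of 11.12, 10.98 and 10.99 in knockdown cells and 10.74, 10.46 and 10.71 in control cells, and all knockdown arrays lay above all control arrays. Kcnab1 rose by 0.39 ± 0.09 (SE; limma adjusted p = 0.0639), a fold of 1.31 that barely exceeded the cut-off. The call was lost in 8 of 15 alternatives, among them cyclic loess (difference of 0.34, limma adjusted p = 0.107) and the removal of any array other than control replicate 1 (limma adjusted p from 0.118 to 0.211). The 9 genes of the Kv1 channel complex had a median of -0.06. The pore subunit genes Kcna1, Kcna2, Kcna4 and Kcna6 had differences of -0.13, -0.20, -0.06 and -0.04, and none was called. Kcna2 had 2 rows, of which the one with the higher mean is given.

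All 11 genes of AMPA receptors and their auxiliary subunits had differences below 0 (median -0.15), beside 57.5% of all rows. The rows behind that share were not matched for level, and mean levels in this list ran from 5.76 to 12.96. None of the 11 genes was called (lowest limma adjusted p = 0.186). Cnih2, an auxiliary subunit that aids export and slows closing of the receptor, had the largest, -0.29 ± 0.11 (SE), and the groups overlapped. Cacng2, which encodes stargazin, had a difference of -0.23 (limma adjusted p = 0.191) in the brighter of its 2 rows.

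Of 8 genes of the scaffold proteins that bind ADAM22 and their partners (MAGUK proteins and LIN7), none was called, and the median was -0.04. Dlg4, which encodes PSD-95, had a difference of -0.00472 (limma adjusted p = 0.977). Dlg3, which encodes the related SAP102, had values of 8.84, 8.91 and 8.82 in knockdown cells and 8.65, 8.46 and 8.63 in control cells. The groups were apart, and the difference of 0.28 ± 0.07 (SE, limma adjusted p = 0.0993) was below the fold cut-off.

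The 7 genes of 14-3-3 proteins, which bind the tail of ADAM22, had a median of -0.00965 and no call. Sfn had the largest difference of these, -0.21 ± 0.08 (SE, limma adjusted p = 0.177), in the brighter of its 2 rows, and the other row was also at -0.21. Rtn4r, whose product NgR1 is a further receptor of LGI1, had a difference of -0.09 (limma adjusted p = 0.486). Tspear and Adgrv1, which share the EPTP repeats of LGI proteins, had differences of 0.20 and -0.04 (limma adjusted p = 0.344 and 0.702).

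Of 9 other ADAM genes, none was called and 8 had differences below 0 (median -0.10), beside 57.5% of all rows. Adam19, an active protease that cleaves neuregulins, had values of 11.07, 11.29 and 11.15 in knockdown cells and 11.49, 11.56 and 11.56 in control cells. The groups were apart, and the difference of -0.37 ± 0.07 (SE, limma adjusted p = 0.0488) passed the p threshold but not the fold cut-off by a small margin. Adam15 was similar, at -0.34 (limma adjusted p = 0.0634). Adam10, which sheds many neuronal membrane proteins, had a difference of 0.20 (limma adjusted p = 0.266).

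**Figure D4:**
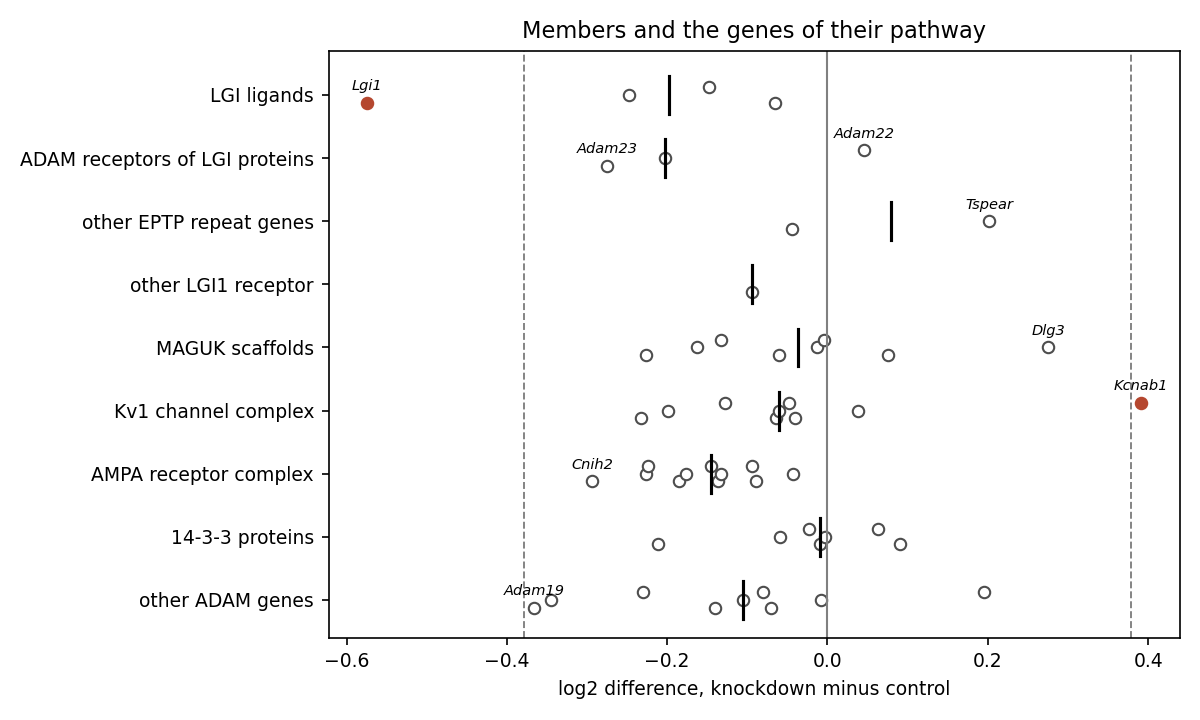
Log2 difference between knockdown and control (horizontal axis) of the 7 members and of 47 pathway genes by list. Each circle is a gene, filled where called, vertical bars are list medians and dashed lines mark the 1.3-fold cut-off; the filled circles are Lgi1 at -0.57 and Kcnab1 at 0.39.

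The label of the cells was checked against markers. The 10 measured markers of sympathoadrenal neuroblasts had mean levels of 9.71 to 13.76. The gene of the noradrenaline-making enzyme, Dbh, fell by 1.17 (limma adjusted p = 0.00471). It was the only marker of the list called, 1 of 10, beside 0.684% of all rows called lower. The differences of the list had a median of -0.25, with 8 of 10 below 0 and 2 above, beside 57.5% of all rows below 0. The list mean, which includes Dbh, was 11.92 to 11.95 in knockdown arrays and 12.15 to 12.29 in control arrays. The 28 measured markers of Schwann cells, astrocytes, oligodendrocytes, fibroblasts and macrophages had mean levels of 4.52 to 11.28, which overlaps the range of the neuroblast markers. None of the 28 was called, their differences had a median of -0.08, and 24 lay below 0, beside 57.5% of all rows. Markers of Schwann cells, the known source of Lgi4, had a list mean of 7.06 to 7.09 in knockdown arrays and 7.13 to 7.18 in control arrays, with Sox10 at 8.09 and Cdh19 at 4.52 over all arrays. Whether these shifts have a part in the differences of Lgi4 or of the other members was not tested.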

How the data were processed

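The log2 values deposited by the authors had gone through RMA background correction, quantile normalisation and summary to 1 value per gene. Versions and the array's genome build are not given. Quantile normalisation hides a change shared by most transcripts. Array medians ran from 7.90 to 8.01. Precision is limited by the 3 arrays in each group.

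Gene symbols came from the platform annotation, with symbols updated by Entrez identifier for 21698 of 21789 rows with 1 symbol (RefSeq, GRCm38.p6). Groups were compared with limma 3.58.1 (lmFit and eBayes, two-sided, no block) in R 4.3.3, with Benjamini-Hochberg adjustment over the named rows. The 1.3-fold cut-off and the false discovery rate of 10% follow the methods of the study, and its variance filter (0.5, read as a quantile) was an alternative because members that vary little get no test under it (Lgi2 and Adam22 did not pass). The main fit took no account of replicate number, and pairing by number, as a block, was an alternative. Deviations from the group means correlated for arrays of the same number (Pearson r of 0.64, 0.31 and 0.29 over rows). The 3 deviations of a group sum to 0, so these correlations are not independent of each other. Arrays of different numbers correlated at 0.22 (knockdown 2 with control 3) and 0.25 (knockdown 3 with control 2), so the numbers 2 and 3 were hardly told apart, and from -0.48 to -0.37 where either array was number 1.

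The genes named are the members, the called genes of each pathway list or its largest difference, the 5 symbols most like Lgi1, and Pou3f3. Kcna1, Kcna2, Kcna4, Kcna6, Cacng2, Dlg4, Adgrv1, Adam15, Adam10, Dbh, Sox10 and Cdh19 were added for their roles after the values were seen. The members and lists were chosen with earlier results of these data known. Some genes of the marker lists are not reported here.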

Additional observations from a re-analysis of the deposited data

How the results depend on the processing

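Lgi1 kept its direction in 15 of 15 alternatives, with differences of -0.66 to -0.51 when 1 array was left out (limma adjusted p up to 0.0978, without knockdown replicate 2). It was not called when all rows were tested, with the same difference of -0.57 (limma adjusted p = 0.131), or with the variance filter on all rows, also at -0.57 (limma adjusted p = 0.244). These tests called 28 and 12 rows in all, against 433 (149 lower, 284 higher), and the cause was not tested. The variance filter on rows with 1 symbol called 542 rows, with Lgi1 among them (limma adjusted p = 0.00157). With the replicate block 544 rows were called, and the block changed no call of a member. On leaving out 1 array the count ran from 147 (without knockdown replicate 2) to 611 (without control replicate 1), with 161 without control replicate 2 and 219 without control replicate 3 (67 higher and 80 lower, 392 and 219, 78 and 83, 129 and 90 in this order). Cyclic loess gave 232 higher and 193 lower. No other member was called in any alternative it could enter. Lgi2 and Adam22 failed both variance filters, Lgi4 that on all rows and Lgi2 that on low levels. Median centring together with the block was chosen after seeing the data. Of the 47 pathway genes, 0 were called when all rows were tested, with or without the variance filter, 2 (Adam15 and Adam19, both lower) after cyclic loess, and 0 to 4 on leaving out 1 array. Adam22 was at -0.00881 without knockdown replicate 1, and no member had more than 1 row to average.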
